A study of Mus musculus with 8 samples.

Results

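A set of 10 genes of the NRF2 antioxidant response was followed in adult mouse liver after deletion of the actin capping protein. These are the transcription factor gene Nfe2l2, its repressor Keap1, and the target genes Nqo1, Gclc, Gclm, Hmox1, Srxn1, Txnrd1, Ugdh and Osgin1. They were chosen by name as parts of this pathway, with earlier results of these data known. All 10 were found among the 24421 gene symbols of the count table and passed the filter on low counts, which left 12985 genes for testing. Glutathione S-transferases, a further family of NRF2 targets, were left out by the same choice.

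Liver RNA of C57BL/6N mice aged 8 to 10 weeks was sequenced in 4 libraries labelled WT and 4 labelled CAPZ_KO. All animals carried Capzb-fl/fl, the floxed gene of the beta subunit of capping protein. CAPZ_KO animals also carried Albumin-CreERT2, a tamoxifen-activated recombinase under the albumin promoter, which is active in hepatocytes, and received 5 daily injections of tamoxifen that began at 4 to 6 weeks of age. WT animals were either Capzb-fl/fl with tamoxifen or Albumin-CreERT2;Capzb-fl/fl without it, and the labels do not tell which library is of which kind. Exposure to tamoxifen and the deletion therefore cannot be told apart in any value below. The labels list the replicates as separate samples without naming separate animals, so each p-value reflects only how far these samples vary, which may in part be technical, although each group held libraries of both sexes and so of more than 1 animal.

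NRF2, the protein encoded by Nfe2l2, is held in the cytoplasm by KEAP1, which presents it to a CUL3 ubiquitin ligase for degradation. Oxidants and electrophiles modify KEAP1, NRF2 then accumulates, pairs with a small MAF protein in the nucleus and binds antioxidant response elements in the promoters and enhancers of its target genes. In liver these targets supply glutathione, NADPH and enzymes that reduce or conjugate reactive compounds. Much of this control acts on protein, which read counts do not measure.

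Antioxidant response elements share the core TGACNNNGC, and the related sequence TGANTCA is that of AP-1 factors, and the motifs can overlap where the N letters fit both. Both were searched for on either strand in RefSeq promoter windows (GRCm38.p6, 250 bases before to 50 after a gene's start), of which 10 windows covered 8 of the 10 genes. The core was present in 5 of these 10 windows, against 12.4% of all 32851 windows, and TGANTCA in 2 of the 10, against 7.81%. The genes and the motifs were chosen with earlier results of these data known, and the difference in shares was not tested. The windows of Srxn1, Ugdh and Nfe2l2 are shown because these genes rose over 2-fold and held a motif, and that of Gclm because it held the core and its gene did not pass the test. Each is given 5′ to 3′ on the gene's strand for the 250 bases before the start, with matches to either motif in capitals.
Srxn1: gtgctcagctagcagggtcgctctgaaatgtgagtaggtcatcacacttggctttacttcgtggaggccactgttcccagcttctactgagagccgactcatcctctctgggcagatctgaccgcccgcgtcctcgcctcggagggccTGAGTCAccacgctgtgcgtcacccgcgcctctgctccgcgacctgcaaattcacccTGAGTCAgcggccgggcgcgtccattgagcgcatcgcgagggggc
Ugdh: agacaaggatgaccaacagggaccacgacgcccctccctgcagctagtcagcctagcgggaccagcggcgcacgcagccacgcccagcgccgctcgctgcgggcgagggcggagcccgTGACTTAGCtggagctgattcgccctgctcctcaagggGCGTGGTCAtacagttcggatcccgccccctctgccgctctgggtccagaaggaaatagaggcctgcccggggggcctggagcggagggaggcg
Nfe2l2: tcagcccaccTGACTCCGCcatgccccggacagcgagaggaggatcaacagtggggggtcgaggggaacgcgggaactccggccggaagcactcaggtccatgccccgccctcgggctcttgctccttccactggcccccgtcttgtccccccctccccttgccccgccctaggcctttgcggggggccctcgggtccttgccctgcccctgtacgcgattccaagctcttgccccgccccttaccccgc
Gclm: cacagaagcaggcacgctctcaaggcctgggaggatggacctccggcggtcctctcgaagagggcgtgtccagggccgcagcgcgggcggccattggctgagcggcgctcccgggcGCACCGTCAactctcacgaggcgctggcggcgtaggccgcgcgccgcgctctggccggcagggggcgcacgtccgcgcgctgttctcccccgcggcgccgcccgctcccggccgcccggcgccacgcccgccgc
The stretches lie at chr2:152105274-152105523 (plus strand), chr5:65435843-65436092 (minus strand), chr2:75704664-75704913 (minus strand) and chr3:122245307-122245556 (plus strand). Srxn1 held TGAGTCA at 102 and at 45 bases before the start, and a core match, TGACCTAGC on the opposite strand, that begins at base 29 after the start and is not shown. Ugdh held TGACTTAGC on the gene's strand and TGACCACGC on the opposite strand, which begin 132 and 94 bases before the start. The single core matches were TGACTCCGC in Nfe2l2, 240 bases before the start, and TGACGGTGC on the opposite strand in Gclm, 134 bases before it. Of 3 Txnrd1 windows 1 held the core, Osgin1 held TGACTCA at 97 bases before the start, and the windows of Nqo1 and Keap1 held neither motif. Each start is that of its RefSeq window. The 250 bases before it in Osgin1 (chr8:119436897-119437146) lie within the gene bounds given below. So do those of the Txnrd1 window with the core (chr10:82858956-82859205). A match describes the letters in a window and is not a measured binding site.

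Values below are CPM, read counts scaled to a common library size, after TMM scaling, which corrects library sizes for differences in RNA composition. Genes were compared by the edgeR quasi-likelihood test over all 12985 genes, and rose or fell is written where the Benjamini-Hochberg adjusted p was under 0.05. The WT libraries held 12060350 to 18916315 counts in total and the CAPZ_KO libraries 13122355 to 16984971. Capzb was at 109.4 to 139.6 CPM in WT and 64.5 to 79.6 in CAPZ_KO, with a log2 fold change of −0.73 ± 0.125 (SE, adjusted p = 0.00134), or −0.10 (adjusted p = 0.442) with library sizes alone. In each group 1 library, WT 4 and CAPZ_KO 4, had 5419 and 4067 counts of Xist and 0 counts over 4 Y-linked genes, while the other 6 had at most 6 Xist counts and 942 to 2885 Y-linked counts. The labels give no sex, and results that change without this female pair of libraries are given both ways. Of the marker lists, that of hepatocytes had 8 of 9 tested genes lower (summed CPM 172700 to 217700 in WT, 39070 to 59930 in CAPZ_KO), with none at 0. Higher were 6 of 8 cholangiocyte markers (summed CPM 34.0 to 67.6 in WT, 369.7 to 1103 in CAPZ_KO), 8 of 11 markers of macrophages derived from monocytes (349.6 to 590.2, and 677.6 to 1023) and 10 of 10 stellate cell markers (338.3 to 413.1, and 886.1 to 1380). The risen cholangiocyte markers Sox9, Epcam, Cldn7, Cftr and Prom1 passed the filter on low counts only through their CAPZ_KO counts. The same held for the risen macrophage markers Trem2, Gpnmb, Cx3cr1 and Itgax. A rise was thus close to the only call open to these genes. In bulk tissue, fewer cells of a type and less RNA per cell cannot be told apart, and the part of cell composition in the results on the 10 genes was not tested.

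Nfe2l2 and 5 of the 8 target genes rose in the CAPZ_KO livers, while Keap1, Gclm, Hmox1 and Osgin1 did not pass the test and no gene of the 10 fell. Thus 6 of 10 rose, where 22.4% of all tested genes rose, 19% fell and 41.4% did either. A rise of at least 2-fold was called in Nfe2l2, Nqo1, Srxn1 and Ugdh, 4 of the 10, and in 14.1% of tested genes. The rises ranged from 1.50-fold in Gclc to 6.24-fold in Srxn1. The same 6 genes had all CAPZ_KO libraries above all WT libraries, which held for 22.1% of tested genes, while 18.2% had them all below and 40.3% had groups apart in either direction. The median log2 fold change of the 10 genes was 1.07, and that of all tested genes was −0.0029. The counts of the 10 genes together made up 1016 to 1115 CPM in WT and 1987 to 2487 CPM in CAPZ_KO.

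**Figure D1:**
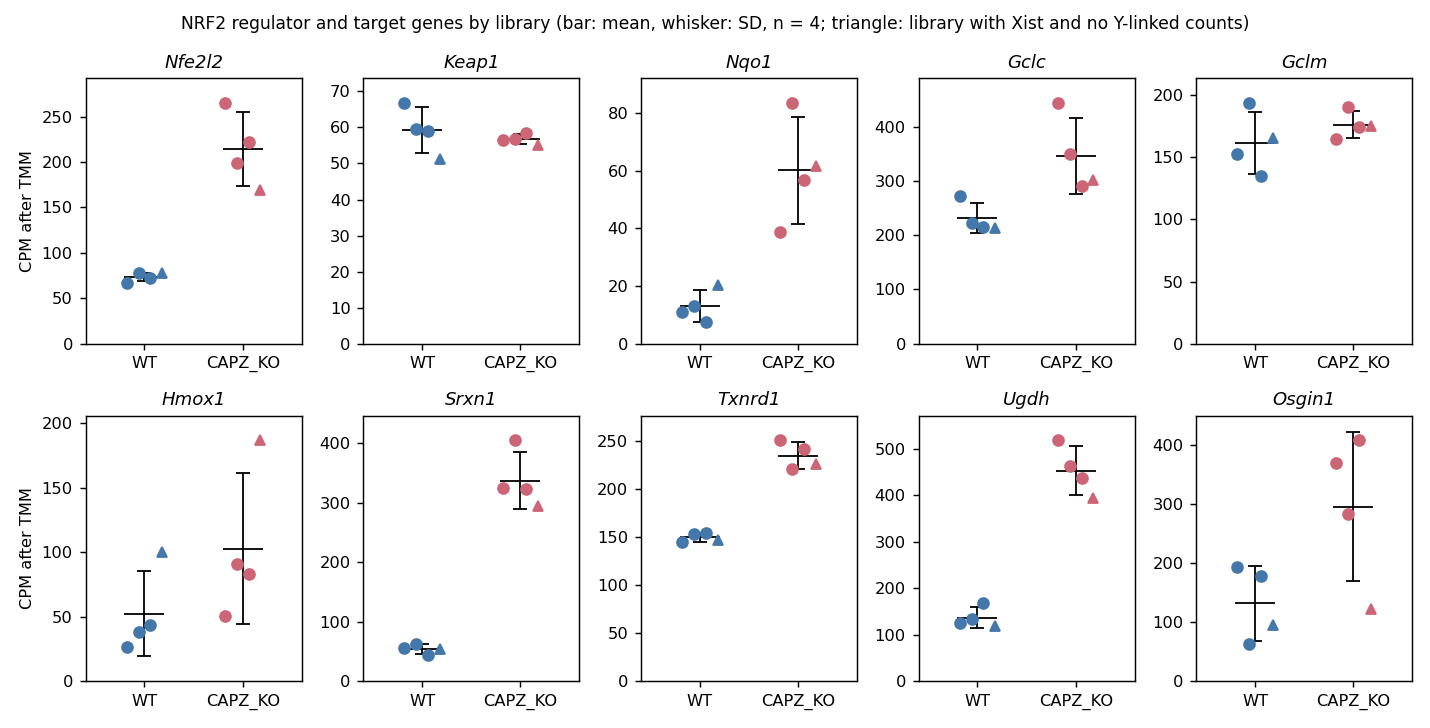
CPM after TMM scaling (y axis, from 0) of the 10 genes in the 4 WT (blue) and 4 CAPZ_KO (red) libraries, with the mean and SD, and triangles for the female pair of libraries. Nfe2l2, Nqo1, Gclc, Srxn1, Txnrd1 and Ugdh do not overlap between groups, Keap1 and Gclm overlap widely, and Hmox1 is highest in the triangle of each group.

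The regulator gene Nfe2l2 stood at 67.2, 77.2, 72.0 and 77.3 CPM in WT 1 to 4 and at 265.4, 199.1, 222.4 and 169.0 CPM in CAPZ_KO 1 to 4. The WT libraries lay close together and the lowest CAPZ_KO library was well above all of them. Its log2 fold change was 1.54 ± 0.154 (SE, adjusted p = 7.01e-05), a 2.91-fold rise with a 95% interval from 2.30 to 3.69. Nfe2l2 lies on chromosome 2 from 75675513 to 75704641 (minus strand, GRCm38, protein coding).

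Keap1, the repressor, had 66.9, 59.6, 58.9 and 51.3 CPM in WT and 56.5, 56.9, 58.5 and 55.0 CPM in CAPZ_KO. The CAPZ_KO libraries all lay within the range of the WT libraries. Its log2 fold change was −0.06 ± 0.113 (SE, adjusted p = 0.69), and its 95% interval ran from a 0.806-fold to a 1.14-fold level. Keap1 lies on chromosome 9 from 21229730 to 21239361 (minus strand), where its exons overlap those of Gm16754 on the opposite strand, so a part of its reads may be assigned differently.

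Within each library the reads of Nfe2l2 were also set against those of Keap1, a ratio that does not depend on scaling. On the log2 scale, the WT mean was 0.32 ± 0.242 and the CAPZ_KO mean 1.90 ± 0.258 (SD, n = 4). As linear ratios, the WT libraries had 1.01 to 1.51 and the CAPZ_KO libraries 3.07 to 4.70. The groups did not overlap, and the difference of 1.58 had p = 0.0286 in an exact two-sided permutation test, the smallest p that the 70 arrangements allow, and 0.0572 when adjusted for the 2 ratios tested.

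Other genes of NRF2 control changed in part. In a list of control and partner genes, 15 were tested, of which 5 rose, 1 fell and 9 did not pass the test, and the list's median was −0.07 on the log2 scale. Among the 5 is Palb2, picked with its values in view, which passed the filter on low counts only through its CAPZ_KO counts. A rise was thus close to the only call open to Palb2. Beside this list and each list below stand the shares of all tested genes, 22.4% higher and 19% lower. The small MAF gene Mafk rose by 1.19 ± 0.165 (SE, adjusted p = 0.000393), from 14.8 ± 2.83 to 33.8 ± 4.67 CPM (SD, n = 4). Maff, chosen after its values were seen, rose by 1.81 from 5.50 ± 3.25 to 19.3 ± 5.45 CPM (SD, n = 4, adjusted p = 0.00905). Fbxw11, a beta-TrCP protein of a ligase that degrades NRF2 independently of KEAP1, rose by 0.61 (adjusted p = 0.00228). Sqstm1, the autophagy receptor p62 that binds KEAP1 and is itself an NRF2 target, rose from 420.0 ± 82.2 to 691.9 ± 86.0 CPM (SD, n = 4, adjusted p = 0.00814) and was likewise chosen after its values were seen. Cul3, the scaffold of the KEAP1 ligase, had a log2 fold change of −0.45 (adjusted p = 0.0122) and was the gene of this list that fell, but with library sizes alone it stood at 0.18 (adjusted p = 0.257).

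Srxn1, sulfiredoxin, which restores overoxidised peroxiredoxins, had the largest rise of the 10 genes. Its libraries stood at 56.2, 62.8, 44.0 and 53.0 CPM in WT and at 325.4, 406.0, 322.6 and 294.5 CPM in CAPZ_KO. Each CAPZ_KO library was thus several times above any WT library. Srxn1 changed by 2.64 ± 0.163 on the log2 scale (SE, adjusted p = 6.04e-06), or 6.24-fold with a 95% interval from 4.86 to 8.03, and it ranked 332 of 12985 genes by log2 fold change. Srxn1 lies on chromosome 2 from 152105516 to 152111376 (plus strand).

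Txnrd1, the cytosolic thioredoxin reductase, had the smallest spread in WT and a smaller rise. Its CPM was 144.7, 153.3, 154.2 and 147.0 in WT and 251.4, 221.2, 241.5 and 226.3 in CAPZ_KO. The coefficient of variation was 3.13% in WT and 5.90% in CAPZ_KO, against medians over all tested genes of 21.0% and 14.8%, and the groups were clearly apart. Txnrd1 changed by 0.65 ± 0.112 on the log2 scale (SE, adjusted p = 0.00133), or 1.57-fold. Txnrd1 lies on chromosome 10 from 82833951 to 82897712 (plus strand).

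No rise was called among the other thioredoxin and peroxiredoxin genes. Of 11 tested, 0 rose, 5 fell and 6 did not pass, and the list's median was −0.23 on the log2 scale. Txnrd2 and Txnrd3, the mitochondrial reductase and the thioredoxin-glutathione reductase, had log2 fold changes of −1.21 and −1.21 (adjusted p = 0.00016 and 0.000408), opposite in sign to that of Txnrd1. Prdx6, chosen after its values were seen, went from 811.8 ± 116.8 to 433.2 ± 58.2 CPM (SD, n = 4, adjusted p = 0.00179), a call not made with library sizes alone (adjusted p = 0.112). Prdx1, a peroxiredoxin that NRF2 is known to induce and that was chosen likewise, had a log2 fold change of −0.23 (adjusted p = 0.24), or 0.40 (adjusted p = 0.0209) with library sizes alone.

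Nqo1, the quinone reductase often used as a readout of NRF2 activity, was the least abundant of the 10 genes in WT and rose 4.64-fold. Its CPM was 10.8, 13.0, 7.38 and 20.4 in WT and 38.5, 83.6, 56.8 and 61.6 in CAPZ_KO. Libraries varied within both groups, with WT 4 the highest of WT and CAPZ_KO 1 the lowest of CAPZ_KO, yet the groups did not overlap. On the log2 scale it rose by 2.22 ± 0.323 (SE, adjusted p = 0.000609), with a 95% interval of the fold from 2.81 to 7.66. Nqo1 lies on chromosome 8 from 107388225 to 107403206 (minus strand). The related gene Nqo2 had a log2 fold change of −0.63 ± 0.134 (SE, adjusted p = 0.00435), so the paralogs moved in opposite directions, though with library sizes alone Nqo2 stood at 0.0061 (adjusted p = 0.972).

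Among the genes whose centred log2(CPM + 1) profile over the 8 libraries was most like that of Nqo1 were Rhbdf1, a rhomboid-like protein, and Gstm2, a glutathione S-transferase. Their root mean square differences from Nqo1 were 0.274 and 0.277. Genes chosen by this likeness tend to share the difference of Nqo1 between the groups. Rhbdf1 and Gstm2 had log2 fold changes of 1.97 and 1.92.

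Other detoxification genes linked to NRF2 rose more often than they fell. Of 15 tested, 8 rose, Nqo2 alone fell and 6 did not pass, and the list's median was 0.44 on the log2 scale. Cbr3, a carbonyl reductase, stood at 0.916 ± 0.347 CPM in WT and at 34.2 ± 9.73 CPM in CAPZ_KO (SD, n = 4) and rose by 5.16 ± 0.321 on the log2 scale (SE, adjusted p = 6.57e-06). With 5 to 19 counts in the WT libraries, Cbr3 passed the filter on low counts only through its CAPZ_KO counts. A rise was thus close to the only call open to it, and it is among the 8 that rose. Ptgr1, a reductase of prostaglandins and of reactive aldehydes, rose by 2.43 ± 0.149 (SE, adjusted p = 5.97e-06). Ephx1, microsomal epoxide hydrolase, and Cbr1, both chosen after their values were seen, rose by 1.24 and 1.00 (adjusted p = 0.000451 and 0.00139).

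Ugdh, UDP-glucose dehydrogenase, makes the UDP-glucuronate used for glucuronidation and for matrix glycans. Its CPM was 125.5, 133.1, 168.6 and 118.5 in WT and 519.9, 462.7, 437.7 and 394.3 in CAPZ_KO. Both groups were compact and far apart. Ugdh rose by 1.73 ± 0.159 on the log2 scale (SE, adjusted p = 4.52e-05), or 3.32-fold with a 95% interval from 2.61 to 4.24. Ugdh lies on chromosome 5 from 65413221 to 65435949 (minus strand), and its exons overlap those of Gm43552 on the same strand. Of 5 other genes of UDP-sugar supply and use, 2 rose. Gusb, beta-glucuronidase, rose by 0.52 (adjusted p = 0.0159), and Uxs1, which converts UDP-glucuronate to UDP-xylose, by 0.52 (adjusted p = 0.043). The call of Uxs1 was lost without any library but WT 3 (adjusted p up to 0.168) and that of Gusb without CAPZ_KO 3 (adjusted p = 0.065), and both were lost without the female pair (adjusted p = 0.167 and 0.0719).

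Gclc and Gclm encode the catalytic and the modifier subunit of glutamate-cysteine ligase, the rate-limiting enzyme of glutathione synthesis. Gclc had 272.0, 222.8, 215.9 and 213.9 CPM in WT and 444.7, 349.5, 289.9 and 300.9 CPM in CAPZ_KO. The highest WT library, WT 1, came near the lowest CAPZ_KO library without reaching it. Its log2 fold change was 0.58 ± 0.168 (SE, adjusted p = 0.0187), or 1.50-fold, and the call was lost without WT 3, CAPZ_KO 1 or CAPZ_KO 2 (adjusted p = 0.055, 0.0681 and 0.0561).

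Gclm had 152.7, 194.3, 135.2 and 165.6 CPM in WT and 165.0, 190.7, 174.8 and 175.6 CPM in CAPZ_KO. The CAPZ_KO values all lay within the WT range. Its log2 fold change was 0.12 ± 0.137 (SE, adjusted p = 0.495), with a 95% interval of the fold from 0.882 to 1.35. Gclc lies on chromosome 9 from 77754535 to 77794485 and Gclm on chromosome 3 from 122245557 to 122270732 (both plus strand). Exons of Gclm overlap those of Gm17494 on the opposite and of Gm6061 on the same strand. The log2 ratio of Gclc to Gclm reads had a WT mean of 0.52 ± 0.288 and a CAPZ_KO mean of 0.95 ± 0.324 (SD, n = 4). The groups overlapped, and the difference of 0.43 had p = 0.114 in the exact two-sided permutation test (0.114 adjusted for the 2 ratios), so a different response of the subunits was not shown. Without WT 1, the difference was 0.54 with an exact p of 0.0286, not adjusted and the smallest that 7 libraries allow. Leaving out any of the other 7 libraries gave an exact p of 0.0857 to 0.229.

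**Figure D2:**
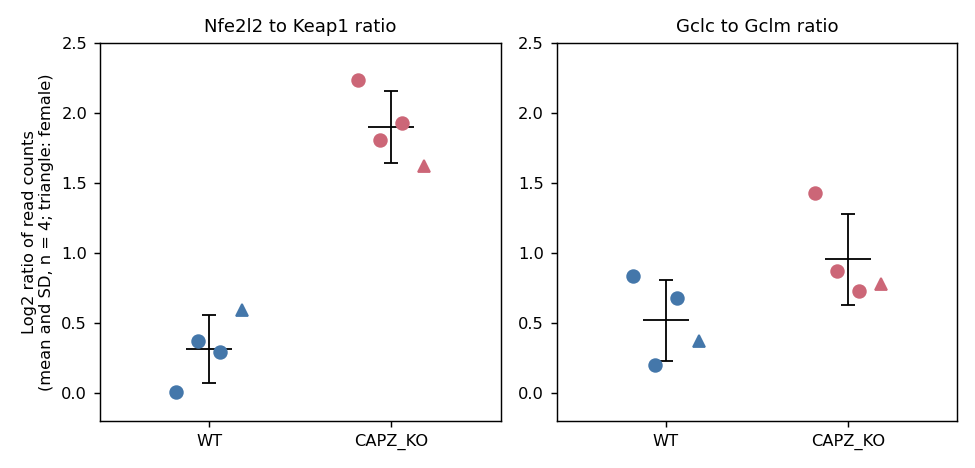
Log2 ratio of read counts (y axis) of Nfe2l2 to Keap1 and of Gclc to Gclm in each WT (blue) and CAPZ_KO (red) library, with the mean and SD of 4 libraries and triangles for the female pair. The Nfe2l2 to Keap1 ratio is 1.62 to 2.23 in CAPZ_KO and at most 0.59 in WT, while the Gclc to Gclm ratios of the groups overlap.

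Among 10 other tested genes of glutathione supply and use, 5 rose, 1 fell and 4 did not pass, and the list's median was 0.52 on the log2 scale. The gene that fell was Chac2, a glutathione-degrading enzyme, at −1.23 (adjusted p = 0.00135). Gss and Gsr, glutathione synthetase and reductase, chosen after their values were seen, rose by 1.16 and 0.79 (adjusted p = 0.000186 and 0.00311). Slc7a11, the cystine importer, chosen likewise, had 1 count in WT 4 and 0 in the other WT libraries, against 684 counts in CAPZ_KO. Scaled by library sizes after TMM the ratio was 471.6, and its 95% interval, which covers counting error only, ran from 84.4 to 18660. Its CAPZ_KO libraries ranged from 0.869 CPM in CAPZ_KO 4 to 18.3 CPM in CAPZ_KO 1, and its fitted log2 fold change of 8.32 was 10.12 without WT 4 and 7.53 without CAPZ_KO 1. Gpx2, a glutathione peroxidase of epithelia, had 3 WT and 484 CAPZ_KO counts, for a ratio, scaled likewise, of 111.2 (interval 37.8 to 541.3). The fitted log2 fold change of Gpx2 was 6.61, and 7.51 without WT 4. Ggt1, which breaks down extracellular glutathione and marks bile duct cells and fetal liver, rose from 0.0772 ± 0.0202 to 1.01 ± 0.138 CPM (SD, n = 4, adjusted p = 0.00014). Slc7a11, Gpx2 and Ggt1 passed the filter on low counts only through their CAPZ_KO counts. A rise was thus close to the only call open to them, and their calls are among the 5 of this list. The summed markers of cholangiocytes were higher in the same libraries. Most of that sum was Spp1, osteopontin, at 25.5 to 36.6 CPM in WT and 318.0 to 1010.4 CPM in CAPZ_KO, while the bile duct keratins Krt19 and Krt7 had log2 fold changes of −0.23 and −0.0054 (adjusted p = 0.713 and 0.994). The part of cholangiocytes in these genes was not tested.

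Genes of NADPH supply divided evenly. Pgd and G6pdx, dehydrogenases of the pentose phosphate pathway, rose by 1.39 ± 0.163 and 1.03 ± 0.143 (SE, adjusted p = 0.000161 and 0.000406). Idh1 and Me1, the cytosolic isocitrate dehydrogenase and malic enzyme, had log2 fold changes of −0.95 and −0.96 (adjusted p = 0.00104 and 0.00917), which with library sizes alone were −0.31 and −0.31 (adjusted p = 0.0945 and 0.297). The other 2 of the 6 genes did not pass the test.

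Hmox1, heme oxygenase, an NRF2 target that BACH1 represses and that macrophages of the liver express strongly, varied most among the 10 genes. Its CPM was 26.0, 38.2, 43.8 and 100.5 in WT and 50.5, 90.9, 82.7 and 187.2 in CAPZ_KO. The female library was the highest of its group in both, and the groups overlapped with this pair and not without it. Its log2 fold change was 0.98 ± 0.492 (SE, adjusted p = 0.143), with a 95% interval of the fold from 0.908 to 4.27. Without the female pair it was 1.05 ± 0.263 (SE, adjusted p = 0.0138, 3 libraries per group), and with sex as a term 1.01 ± 0.215 (SE, adjusted p = 0.00431). Without WT 4 alone it was 1.50 (adjusted p = 0.0227) and without CAPZ_KO 4 alone 0.51 (adjusted p = 0.396). Hmox1 lies on chromosome 8 from 75093621 to 75100589 (plus strand).

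Summed markers of macrophages moved in the same libraries. The summed CPM of 7 Kupffer cell markers was 529.5, 1208, 1296 and 1348 in WT and 1084, 2274, 1969 and 3425 in CAPZ_KO, so that it was lowest in replicate 1 and highest in replicate 4 of each group, as Hmox1 was. Most of the sum in CAPZ_KO 4 was Cd5l and Marco, at 1316.5 and 1109.5 CPM. Only Cd5l and Vsig4 of the 7 markers were by themselves lowest in replicate 1 and highest in replicate 4 of each group. Clec4f and Folr2 were highest in CAPZ_KO 2, at 498.4 and 87.4 CPM against 396.5 and 69.4 CPM in CAPZ_KO 4. C6 was highest in WT 3, at 385.2 CPM, and within WT it was lowest in WT 4. Of these 7 markers 3 rose, and none was at 0 in all libraries. Markers of macrophages derived from monocytes were at 590.2 CPM in WT 4 and 1023 CPM in CAPZ_KO 4, the highest of each group. The part of macrophages in the Hmox1 values was not tested.

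Among 7 other genes of heme and iron handling, 1 rose, 0 fell and 6 did not pass, with a list median of 0.06 on the log2 scale. Slc48a1, a heme transporter, rose from 63.2 ± 7.37 to 123.7 ± 9.39 CPM (SD, n = 4, adjusted p = 0.000248). Blvrb, a biliverdin reductase, had a log2 fold change of 0.21 (adjusted p = 0.351), or 0.83 (adjusted p = 0.00119) with library sizes alone.

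Osgin1, oxidative stress induced growth inhibitor, had the next widest spread. Its CPM was 192.7, 62.0, 177.9 and 95.2 in WT and 369.4, 282.9, 409.4 and 123.0 in CAPZ_KO. CAPZ_KO 4, the female library, lay below WT 1 and WT 3, and the other CAPZ_KO libraries lay above all of WT. Its log2 fold change was 1.17 ± 0.435 (SE, adjusted p = 0.0564), with a 95% interval of the fold from 1.14 to 4.42. It passed without the female pair at 1.29 (adjusted p = 0.0356), with sex as a term at 1.07 (adjusted p = 0.0381), without CAPZ_KO 4 at 1.42 (adjusted p = 0.0155) and without WT 1 at 1.40 (adjusted p = 0.0499). Osgin1 also passed with all 8 libraries and no sex term by the DESeq2 test (adjusted p = 0.0149), with upper-quartile scaling (adjusted p = 0.0454) and with non-robust dispersion (adjusted p = 0.049), each of which called 7 of the 10 genes, and in 7 of 12 other settings in all. The DESeq2 test called 3023 of 12959 tested genes higher, upper-quartile scaling 3291 of 12985 and non-robust dispersion 2931 of 12985. Osgin1 lies on chromosome 8 from 119434124 to 119446256 (plus strand). With sex as a term, or without the female pair, 8 of the 10 genes rose, and Keap1 and Gclm did not pass in either. In these settings 3018 of 12985 and 2742 of 13056 tested genes were higher.

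**Figure D3:**
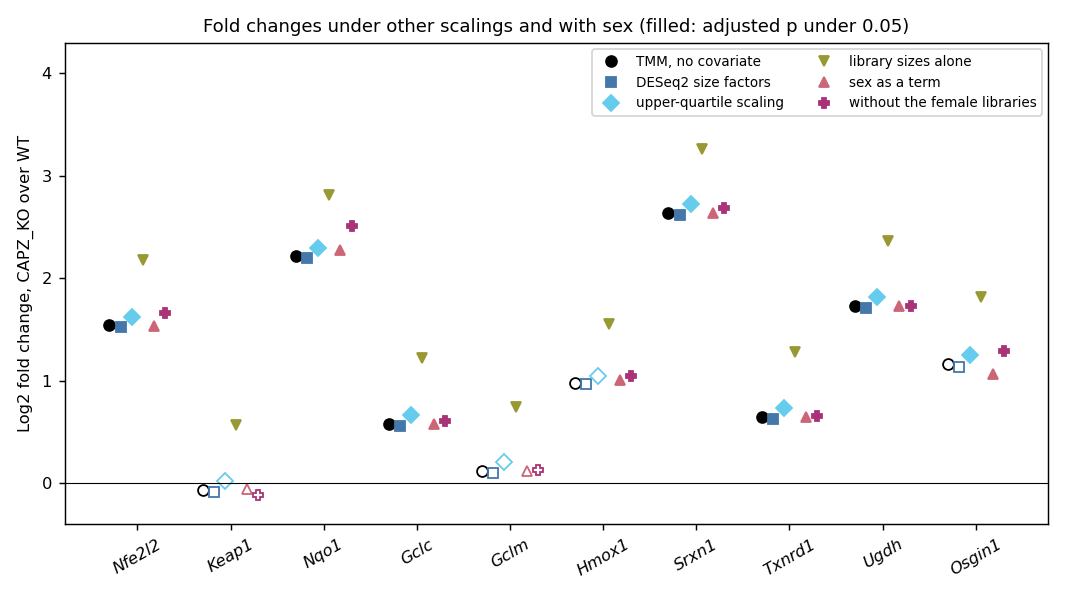
Log2 fold change of each of the 10 genes (y axis) with TMM scaling and no covariate, with 3 other scalings, with sex as a term and without the female pair, filled where the adjusted p was under 0.05. Hmox1 and Osgin1 have log2 fold changes of 0.97 to 1.82 and pass with sex taken into account, and library sizes alone place all 10 genes higher.

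The scaling mattered for the genes near 0. With library sizes alone, the median log2 fold change of all tested genes was 0.622, 91.6% of all calls were higher against 54.1% with TMM, and all 10 genes rose where 59% of tested genes did. Relative to that median, Keap1 lay at −0.05 and Gclm at 0.12, while Srxn1 lay at 2.64, Nqo1 at 2.19 and Nfe2l2 at 1.55, close to their values with TMM.

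**Figure D4:**
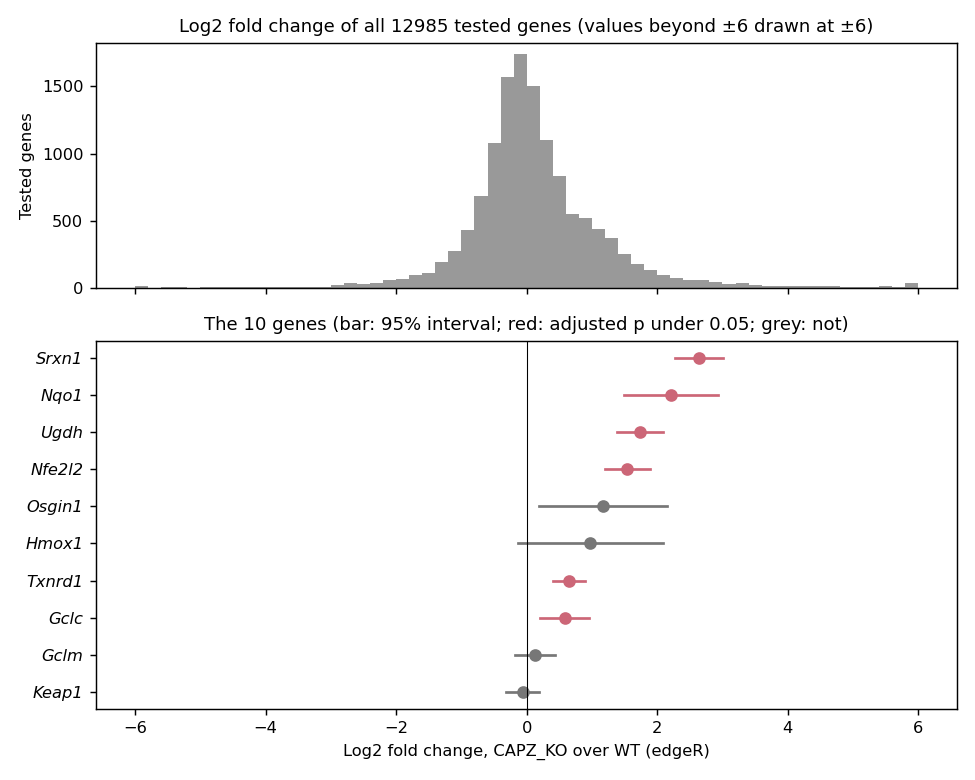
Log2 fold change (x axis) of all 12985 tested genes as a histogram (top) and of the 10 genes with 95% intervals (bottom), in red where the adjusted p was under 0.05. Srxn1, Nqo1, Ugdh and Nfe2l2 lie in the upper tail above 1.5, while Keap1 and Gclm lie near the centre at −0.06 and 0.12.

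Per length of annotated exons (RPKM, CPM per kilobase of merged exons), the order of the 10 genes differed between the groups. In WT, Gclc was the highest at 61.4 ± 7.30 RPKM, followed by Osgin1 at 49.3 ± 23.7, Hmox1 at 29.8 ± 18.9 and Gclm at 25.7 ± 3.96 (SD, n = 4). Txnrd1, Ugdh, Nfe2l2 and Srxn1 came next at 19.2 to 21.1 RPKM, then Keap1 at 12.6 ± 1.36 and Nqo1 at 8.31 ± 3.55 (SD, n = 4). Of the 9 neighbouring pairs in this order, 8 overlapped between libraries, and Srxn1 and Keap1 did not. In CAPZ_KO, Srxn1 came at the top with 119.6 ± 17.0 RPKM, then Osgin1 at 110.8 ± 47.5, Gclc at 91.9 ± 18.7 and Ugdh at 67.2 ± 7.76 (SD, n = 4). Hmox1, Nfe2l2, Nqo1 and Txnrd1 followed at 58.7, 56.4, 38.7 and 33.2 RPKM, then Gclm at 28.1 ± 1.69 and Keap1 at 12.1 ± 0.304 (SD, n = 4). There 7 of 9 neighbouring pairs overlapped, and Gclm was apart from both of its neighbours, Txnrd1 and Keap1.

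Of 9 other antioxidant enzymes tested, 5 fell, 2 rose and 2 did not pass, and the list's median was −0.65 on the log2 scale. Msrb1, a methionine sulfoxide reductase, had −1.35 ± 0.162 (SE, adjusted p = 0.000188). Cat, catalase, went from 3568 ± 511.9 to 1471 ± 43.5 CPM (SD, n = 4, adjusted p = 0.00019), and Sod1 and Sod2, the cytosolic and mitochondrial superoxide dismutases, had log2 fold changes of −1.31 and −0.93 (adjusted p = 0.000721 and 0.00103). Cat, Sod1 and Sod2 were picked with their values in view, and Sod2 had −0.32 (adjusted p = 0.0766) with library sizes alone. The enzymes that rose were Gpx3, the plasma glutathione peroxidase, at 2.59 ± 0.265 (SE, adjusted p = 8.24e-05), and Gpx4, which protects membrane lipids, at 1.12 ± 0.169 (SE, adjusted p = 0.000617). The summed hepatocyte markers, given above, were lower in the same libraries, and their part was not tested.

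Over all 8 lists of other pathway genes, 78 of 80 genes were tested, of which 25 rose, 15 fell and 38 did not pass, and their median was 0.06 on the log2 scale. The 25 include Slc7a11, Gpx2, Ggt1, Cbr3 and Palb2, which passed the filter on low counts only through their CAPZ_KO counts. Of all tested genes 22.4% rose and 19% fell. The difference between the counts of these 78 genes and those of the 10 genes was not tested, nor was their difference from all tested genes.

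**Figure D5:**
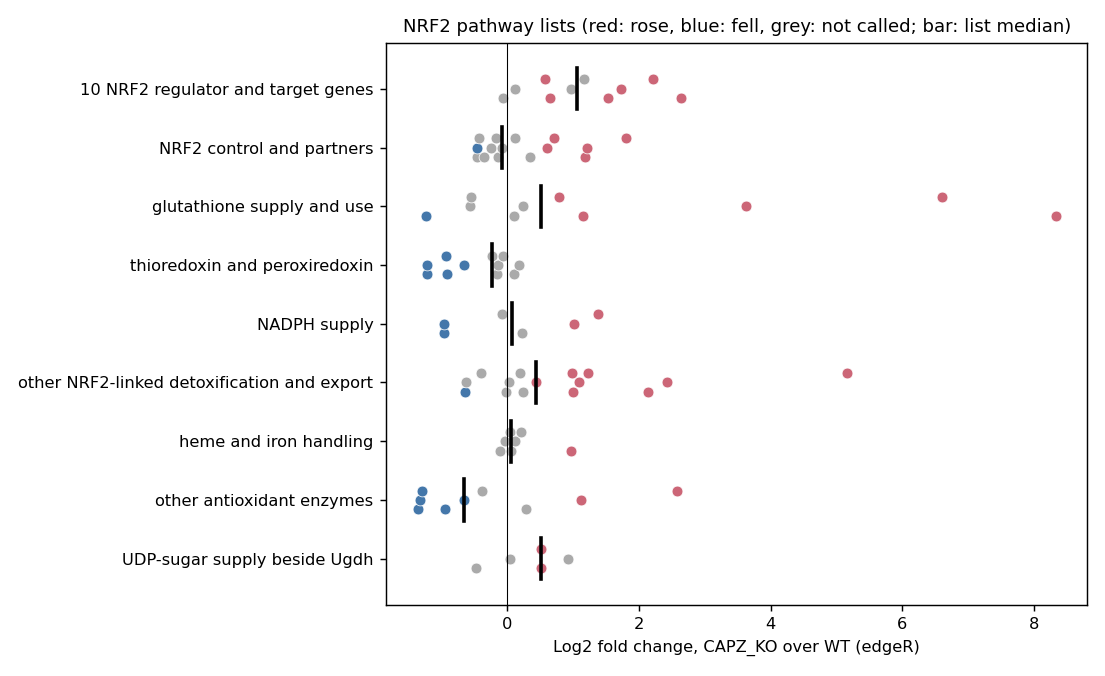
Log2 fold change (x axis) of the 10 genes and of the tested genes of 8 other lists of the pathway (rows), in red where a gene rose, blue where it fell and grey where it did not pass, with a bar at each list's median. The 10 genes have a median of 1.07, the thioredoxin and peroxiredoxin list has 0 risen genes, and the other antioxidant enzymes have a median of −0.65.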

How the data were processed

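Per the labels' protocols, stranded libraries were prepared from poly(A) RNA of perfused livers. The deposited table holds whole-number read counts for each gene symbol and library, not normalized by the authors. The submitters' processing notes name bcl2fastq, STAR 2.5.3a, featureCounts, R 3.3.1, edgeR and the build mm10, without saying which step each served. Annotation, strand setting and treatment of multi-mapping reads were not given in the sources used here, so reads of overlapping genes may be divided in unknown ways.

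Low genes were removed by filterByExpr (edgeR 4.0.16) with a minimum count of 10 and a total of at least 15. TMM factors were 0.774 to 0.847 for WT and 1.18 to 1.33 for CAPZ_KO. The robust quasi-likelihood test used 8 libraries and no covariate (R 4.3.3) and was tested on simulated data. Adjusted p values are Benjamini-Hochberg values from edgeR over 12985 genes, over 13056 to 13236 genes where libraries were left out and the filter was applied again, and over the 2 ratios for the exact tests. Those of the DESeq2 test are named as such, and intervals of a fold use the test's degrees of freedom. Ratios of reads had 0.5 added to each count.

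Positions and exon lengths were taken from GENCODE vM21 (GRCm38, which mm10 also names) and promoter sequences from RefSeq (GRCm38.p6). The 10 genes, the lists and the motifs were chosen with earlier results of these data known. The rule for naming took, besides the 10 genes, the 2 genes of each pathway list with the smallest p, those called against the list's majority, and the 3 genes most like Nqo1 (mean CPM of at least 5, no gene model symbols), of which 1 is not reported here. In marker lists the 2 genes with the smallest p could likewise be named, among them Spp1, Alas2, Folr2 and Vsig4. The markers Krt19, Krt7, Cd5l, Marco, C6 and Clec4f were picked with their values in view. Markers said to have passed the filter only through their CAPZ_KO counts are named for that reason. Any other gene of the lists is marked in the text as picked with its values in view. Marker lists of endothelial, T and NK, B, neutrophil and red cell precursor cells had 2 of 8, 0 of 6, 0 of 4, 2 of 5 and 0 of 1 tested genes higher and 0 lower except for the red cell precursor gene Alas2, which fell (log2 fold change −2.82, adjusted p = 0.00469, with its list's summed CPM at 16.5 to 142.4 in WT against 7.42 to 12.3). The 4 globin genes of that list had 0 counts in every library. The reason was not tested, and the zeros are not read as an absence of blood RNA. The risen neutrophil markers Mmp8 and Cxcr2 passed the filter on low counts only through their CAPZ_KO counts. Libraries of the same group differed pairwise by 26.4 to 153.3 (chi-square over its degrees of freedom), so none was a duplicate of another in its group. Pairs across the groups were not compared in this way. Alternatives were other scalings, filters and tests (DESeq2 1.42.0, limma-voom 3.58.1), a threshold of 0.01, sex as a term, a replicate block, and leaving out libraries.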

Additional observations from a re-analysis of the deposited data

Results flagged for a closer look

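In 96 groups of 4 libraries, the highest or lowest library was checked for a gap to its nearest neighbour above Dixon's 95% critical value, which chance gives in about 5% of groups, or 4.8 of these. Such a gap was found 5 times. Gclc was at 272.0 CPM in WT 1, above the other WT libraries at 213.9 to 222.8. Cbr3 was at 19.7 CPM in CAPZ_KO 4, the female library, below 37.7 to 40.7 in the other CAPZ_KO libraries. Txnrd3 was at 8.04 CPM in WT 1. Ggt1 was at 0.107 CPM in WT 1, where each WT library held 1 count. Slc7a11 was at 0.0648 CPM in WT 4, which held its 1 WT count.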

How the results depend on the processing

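Nfe2l2, Nqo1, Srxn1, Txnrd1 and Ugdh rose under each of the 12 other settings and without each library. The call of Gclc was lost at a threshold of 0.01 and without 3 of the 8 libraries in turn. With library sizes alone 10 of the 10 genes were higher, 48 and 6 of the other pathway genes and 7665 and 700 of all genes were higher and lower, and Capzb had −0.10 (adjusted p = 0.442). There Keap1 was at 0.57, Cul3 at 0.18, Nqo2 at 0.0061 and Prdx1 at 0.40, all negative with TMM, and with upper-quartile scaling Keap1 was at 0.0204 (adjusted p = 0.902). At an adjusted p under 0.01, 1864 genes were higher and 1439 lower. Leaving out each library in turn gave 5 to 7 of the 10 genes higher and 0 lower, 21 to 24 of the other pathway genes higher and 15 to 19 lower, 2371 to 2964 genes higher and 2100 to 2658 lower, Capzb at −0.82 to −0.66, the Nfe2l2 to Keap1 difference at 1.47 to 1.67 and the Gclc to Gclm difference at 0.27 to 0.54. The Nfe2l2 to Keap1 difference was 1.77 without the female pair (exact p = 0.1) and 1.58 in an exact sign-flip test of same-numbered pairs (p = 0.125), the smallest p that each allows. The cause of the other changes was not tested.

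Replicate numbers are shared between the groups, but nothing in the labels pairs the samples. Deviations of same-numbered libraries correlated across genes at 0.245, 0.0251, 0.0847 and 0.301 for numbers 1 to 4, and number 4 holds both female libraries. With the replicate number as a block, 8 of the 10 genes were higher, with Hmox1 at 1.01 (adjusted p = 0.000504) and Osgin1 at 1.17 (adjusted p = 0.0117), and 2974 genes were higher and 2411 lower. Depth limits Slc7a11, Gpx2 and Ggt1, whose WT libraries together held 1, 3 and 4 counts. It also limits Cbr3, Palb2 and the markers named above that passed the filter only through their CAPZ_KO counts.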

Other observations

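Several of the enzymes above are selenoproteins, which insert selenocysteine at the active site, and they did not move together. Txnrd1, Gpx2, Gpx3 and Gpx4 were higher in CAPZ_KO, at log2 fold changes of 0.65, 6.61, 2.59 and 1.12, while Txnrd2, Txnrd3 and Msrb1 were lower, at −1.21, −1.21 and −1.35. Gpx1, the most abundant of these 8 by CPM and chosen here after its values were seen, had −0.38 ± 0.205 (SE, edgeR adjusted p = 0.165). These genes were grouped after their values were seen, and no test was made of the group.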
